A study of Mus musculus with 19 samples.

Results

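The calcium/calmodulin-dependent kinases examined here were 10 genes, *Camk2a*, *Camk2b*, *Camk2d*, *Camk2g*, *Camk4*, *Camkk1*, *Camkk2*, *Camk1*, *Camk1d* and *Camkv*, chosen by name and found by their GENCODE M21 gene names among the 41128 genes of the count table. All 10 matched a single row, and all 10 were among the 16841 genes with enough counts for a test. The RNA came from 3-month-old mice on the C57BL/6 strain. SCA17 knock-in mice model spinocerebellar ataxia type 17 and carry an expanded CAG repeat in *Tbp*, the gene for the TATA-binding protein, in the germline, made by crossing heterozygous floxed *Tbp* mice with EIIa-*Cre* mice, so that the allele is present in all tissues. Control mice were age-matched WT. Cerebellum (CB) gave 3 WT and 4 knock-in (KI) libraries, and striatum (STR) and prefrontal cortex (PFC) gave 3 of each genotype, 19 in all. Whole tissue was sequenced, so fewer cells of a type and less RNA per cell cannot be told apart.

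Library totals ran from 10639110 to 17431284 counts, with a median of 15082703, and are scaled below to CPM, counts on the scale of a common library total, by edgeR's TMM method, which evens out library size and composition. Comparisons between genes use RPKM, the CPM divided by the exon length in kilobases. Markers of each region's principal neurons followed the labels. Summed CPM of 14 Purkinje cell markers lay between 5255 and 8978 in the 7 cerebellar libraries and at most at 1749 elsewhere, and that of 15 medium spiny neuron markers lay between 9795 and 18876 in the 6 striatal libraries and at most at 2269 elsewhere. Summed CPM of 12 cortical excitatory neuron markers lay between 1801 and 2945 in the prefrontal cortex and at most at 769.9 elsewhere. Choroid plexus markers summed to between 1556 and 8980 CPM in the striatal libraries, to 4951 in KI cerebellum replicate 3, to 1977 in WT cerebellum replicate 1 and to at most 49.1 in the others. The repeat length cannot be read from gene counts, so the genotype labels were not checked against it.

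Calmodulin changes shape when it binds calcium, and the kinases of this family are switched on by calcium-loaded calmodulin. CaMKII, built from mixed subunits encoded by *Camk2a*, *Camk2b*, *Camk2d* and *Camk2g*, is a multi-subunit enzyme abundant at synapses that phosphorylates its own subunits and then stays active after calcium has fallen. In the CaM kinase cascade, the upstream kinases encoded by *Camkk1* and *Camkk2* phosphorylate the activation loop of CaMKI (*Camk1*, *Camk1d*) and CaMKIV (*Camk4*), and *Camkv* encodes a relative that binds calmodulin but is regarded as a pseudokinase.

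The members lie on several chromosomes of GRCm38. *Camk2b* (ENSMUSG00000057897) lies on chromosome 11 from 5969644 to 6066362 on the minus strand, and *Camk1d* (ENSMUSG00000039145) on chromosome 2 from 5293457 to 5714515 on the minus strand. *Camk2d* (ENSMUSG00000053819) spans 126596302 to 126846326 on chromosome 3, plus strand. *Camkk1* (ENSMUSG00000020785) is on chromosome 11 at 73019008 to 73042073, and *Camkk2* (ENSMUSG00000029471) on chromosome 5 at 122731170 to 122779409. *Camkv* (ENSMUSG00000032936) is on chromosome 9 at 107935674 to 107949691. Exons of *Camk1* overlap those of *Ogg1* on the opposite strand over 232 bases, 3.88% of the exon length of *Camk1*, and exons of *Camk4* overlap *2310026I22Rik* over 72 bases, 2.21% of its exon length. Whether the counting used strand is not given in the sources used here, so reads in those stretches cannot be assigned with certainty.

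The knock-in protein is the factor that recognises the TATA box, so the sequence just before a RefSeq transcription start is shown for the members whose genotype comparison had the smallest adjusted p, *Camk2b* and *Camk1d*, and for *Camk2d*, a subunit gene with a different regional pattern. Each line gives the 250 bases before the RefSeq start, 5′ to 3′ on the gene's strand, in a window with 0 bases in annotated exons, from RefSeq on GRCm38.p6. The *Camk2b* and *Camk2d* windows lie inside the GENCODE bounds of these genes given above, downstream of the outermost annotated 5′ end. The *Camk1d* window lies outside its bounds. Capitals mark GGGCGG, the core of a GC box, or its reverse complement CCGCCC, and neighbouring matches may overlap.
*Camk2b*, chr11:6065749-6065998, minus strand: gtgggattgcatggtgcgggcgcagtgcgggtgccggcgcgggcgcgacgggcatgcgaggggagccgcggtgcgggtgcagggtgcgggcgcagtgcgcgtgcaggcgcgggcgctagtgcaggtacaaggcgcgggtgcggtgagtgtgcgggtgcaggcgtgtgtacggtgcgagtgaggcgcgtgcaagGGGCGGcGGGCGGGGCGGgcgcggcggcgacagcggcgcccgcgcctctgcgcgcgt
*Camk1d*, chr2:5714763-5715012, minus strand: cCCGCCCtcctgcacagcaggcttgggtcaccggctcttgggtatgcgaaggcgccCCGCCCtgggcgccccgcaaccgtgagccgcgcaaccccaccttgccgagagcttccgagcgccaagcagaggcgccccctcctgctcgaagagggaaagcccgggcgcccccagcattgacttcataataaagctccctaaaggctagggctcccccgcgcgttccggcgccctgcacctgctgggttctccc
*Camk2d*, chr3:126596701-126596950, plus strand: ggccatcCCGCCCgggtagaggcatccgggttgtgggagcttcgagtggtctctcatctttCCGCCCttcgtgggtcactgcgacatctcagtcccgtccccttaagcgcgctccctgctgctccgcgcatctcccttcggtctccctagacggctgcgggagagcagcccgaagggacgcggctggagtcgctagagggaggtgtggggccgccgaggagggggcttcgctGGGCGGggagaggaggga

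The letters TATAAA, searched on both strands, occurred in none of these windows. RefSeq windows were used for 7 of the 10 members, 8 windows in all because *Camk1d* had more than a single start. Chromosome 18, which holds *Camk2a* and *Camk4*, was left out for members but not for the windows of all genes. No window was at hand for *Camk2g*. TATAAA was found for 0 of the 7 members, where 12.4% of all 32851 windows of this length held it, and GGGCGG for 6 of the 7, where 32.7% of all windows held it. The first counts are per member and the shares per window. The windows not shown lay partly in annotated exons. Their exon bases were 246 for *Camkv*, 136 for *Camkk2*, 104 for *Camkk1*, 65 for the other *Camk1d* window and 62 for *Camk1*. *Camk2b* had 3 GGGCGG matches and a GC content of 78.4%, *Camk2d* 3 matches and 68.4%, and the *Camk1d* window shown 2 matches and 69.2%. The full cyclic AMP response element TGACGTCA occurred for 0 of the 7, against 1.55% of all windows. These matches describe letters in a window and not sites used in the tissue.

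In WT mice, each region had its own order of kinase transcripts per exon length. In the cerebellum *Camk4*, a nuclear kinase that phosphorylates CREB and is known from granule cells, was highest at 177 ± 29.2 RPKM (SD, n = 3), followed by *Camk2b* at 90.9 ± 6.09 RPKM (SD, n = 3), and *Camkv* was lowest at 1.45 ± 0.0983 RPKM (SD, n = 3). In the striatum *Camkv* was highest at 320.4 ± 23.8 RPKM (SD, n = 3), with *Camk2b* next at 156 ± 3.11 RPKM (SD, n = 3). In the prefrontal cortex *Camk2a* led at 219.6 ± 62.2 RPKM (SD, n = 3) and *Camkv* followed at 164 ± 19.0 RPKM (SD, n = 3), and their library ranges overlapped. *Camk4* and *Camk2a* in the striatum and *Camk4* and *Camkk1* in the prefrontal cortex were also neighbours whose libraries overlapped. In the lower part of the order, *Camkk1* and *Camk1*, *Camkk2* and *Camk2d*, and *Camk2g*, *Camk1d* and *Camk2a* overlapped with their neighbours in the cerebellum, *Camk1d* and *Camk1* in the striatum, and *Camk2g*, *Camk1d* and *Camk2d* in the prefrontal cortex. The exon length of *Camk2d*, 22493 bases over all annotated transcripts, is the longest of the 10 and sets its RPKM low wherever shorter transcripts are the ones used.

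**Figure D1:**
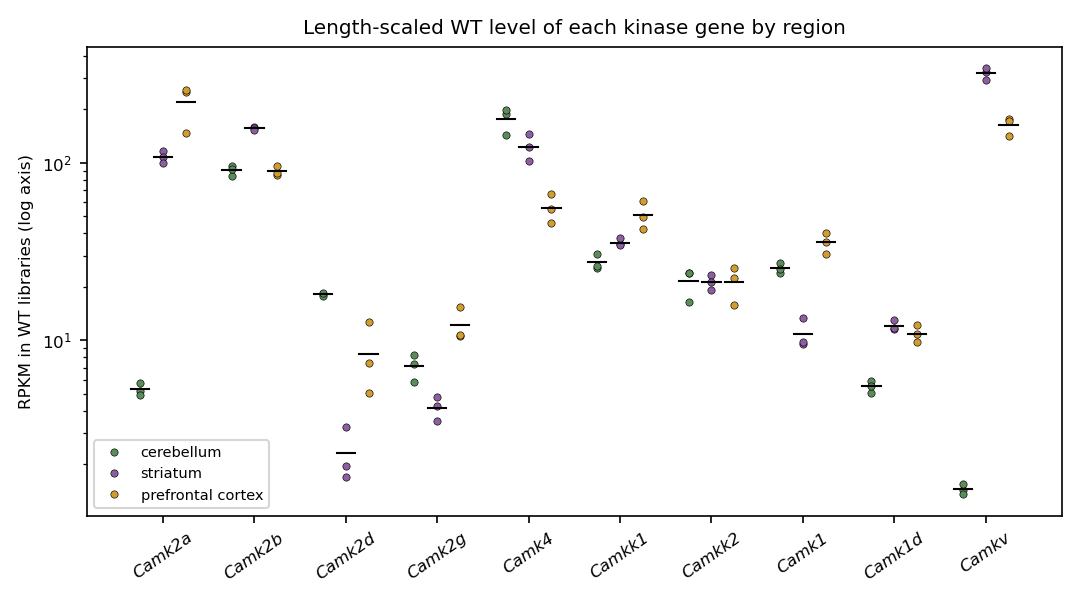
RPKM (log axis) of each kinase gene in WT libraries, with a point for each library, a line at the mean and a colour for each region. *Camk2a* and *Camkv* in the cerebellum, at 5.28 and 1.45 RPKM, lie far below their other regions, and the *Camkk2* points overlap in the 3 regions.

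Between WT regions, 9 of the 10 members differed between cerebellum and striatum, 4 higher and 5 lower in the cerebellum, where 56.5% of all tested genes differed (27.8% higher and 28.7% lower) at an adjusted p under 0.05 (the quasi-likelihood test of edgeR, Benjamini-Hochberg adjusted). Between cerebellum and prefrontal cortex 8 members differed, 2 higher and 6 lower in the cerebellum, where 52.0% of all tested genes did (25.1% higher and 26.9% lower). Between striatum and prefrontal cortex 7 differed, 2 higher and 5 lower in the striatum, against 30.5% of all tested genes (14.0% higher and 16.4% lower). The median log2 fold change of the members was -0.18, -0.63 and -0.26 in these comparisons in that order, each as the first region minus the second, and the median of all tested genes was within 0.01 of 0 in each.

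Among the CaMKII subunits, *Camk2a* was far lower in the WT cerebellum than in the WT striatum and prefrontal cortex. Its CPM in the WT cerebellum was 42.9, 38.8 and 36.6, in the WT striatum 869.8, 805 and 746, and in the WT prefrontal cortex 1883, 1932 and 1104. The 3 regions did not overlap, and replicate 3 of the prefrontal cortex lay well below its fellows. The cerebellar level was 20.5-fold lower than the striatal level (log2 fold change -4.35, SE 0.241) and 41.6-fold lower than that of the prefrontal cortex (log2 fold change -5.38, SE 0.252), with adjusted p = 1.57e-10 and 3.32e-11 from the quasi-likelihood test of edgeR, Benjamini-Hochberg adjusted. The striatum was 2.03-fold below the prefrontal cortex (adjusted p = 0.00131, quasi-likelihood test of edgeR, Benjamini-Hochberg adjusted).

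*Camk2b*, whose product carries the actin-binding stretch that ties CaMKII to the cytoskeleton, was present at a high level everywhere. Its CPM was 769, 878 and 840.2 in the WT cerebellum, 1455, 1428 and 1398 in the WT striatum and 783, 803 and 879.9 in the WT prefrontal cortex. The striatum stood above both other regions without overlap, and cerebellum and prefrontal cortex overlapped. The striatum was 1.72-fold above the cerebellum and 1.74-fold above the prefrontal cortex (adjusted p = 9.23e-06 and 2.81e-05, the quasi-likelihood test of edgeR, Benjamini-Hochberg adjusted), and the cerebellum and prefrontal cortex were 0.01 apart on the log2 scale with a 95% interval of -0.21 to 0.24.

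*Camk2d* and *Camk2g*, the subunit genes also expressed widely outside the brain, followed other orders. *Camk2d* measured 408, 400.3 and 414 CPM in the WT cerebellum, 44.2, 38.2 and 73.3 CPM in the WT striatum and 284, 114 and 168 CPM in the WT prefrontal cortex. The cerebellar libraries were all above the others and nearly equal, while the prefrontal libraries were widely spread and overlapped with neither other region. The cerebellum was 7.86-fold above the striatum (adjusted p = 5.6e-06) and 2.16-fold above the prefrontal cortex (adjusted p = 0.0164), both by the quasi-likelihood test of edgeR, Benjamini-Hochberg adjusted. The second of these was lost without WT prefrontal cortex replicate 2 (adjusted p = 0.0784) or replicate 3 (adjusted p = 0.0527) in the same edgeR quasi-likelihood test. *Camk2g* was highest in the prefrontal cortex at 78.2 ± 17.2 CPM (SD, n = 3), lower in the cerebellum at 45.8 ± 7.76 CPM (SD, n = 3) and lowest in the striatum at 26.7 ± 4.13 CPM (SD, n = 3), and each of these 3 differences passed the same test.

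Put as shares of the summed RPKM of the 4 subunit genes, *Camk2b* made up 74.8% ± 1.099 (SD, n = 3) in the WT cerebellum, *Camk2d* 15.0% ± 0.934 (SD, n = 3), *Camk2g* 5.87% ± 0.771 (SD, n = 3) and *Camk2a* 4.37% ± 0.582 (SD, n = 3). In the WT striatum *Camk2b* held 57.7% ± 1.11 (SD, n = 3) and *Camk2a* 39.9% ± 1.52 (SD, n = 3). In the WT prefrontal cortex the order of these subunits was turned, with *Camk2a* at 65.5% ± 7.99 (SD, n = 3) and *Camk2b* at 28.1% ± 7.43 (SD, n = 3). The RPKM ratio of *Camk2a* to *Camk2b* was 0.0681, 0.0540 and 0.0533 in the WT cerebellum, 0.731, 0.689 and 0.652 in the WT striatum and 2.94, 2.94 and 1.53 in the WT prefrontal cortex, with no overlap between regions. In KI mice this ratio was 0.0671, 0.0872, 0.0501 and 0.0438 in the cerebellum, 0.715, 0.587 and 0.684 in the striatum and 1.64, 1.60 and 2.15 in the prefrontal cortex, and it overlapped with WT in each region. Counts not divided by exon length gave *Camk2d* a share of 30.9% in the WT cerebellum, and left *Camk2b* first in the cerebellum and striatum and *Camk2a* first in the prefrontal cortex.

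**Figure D2:**
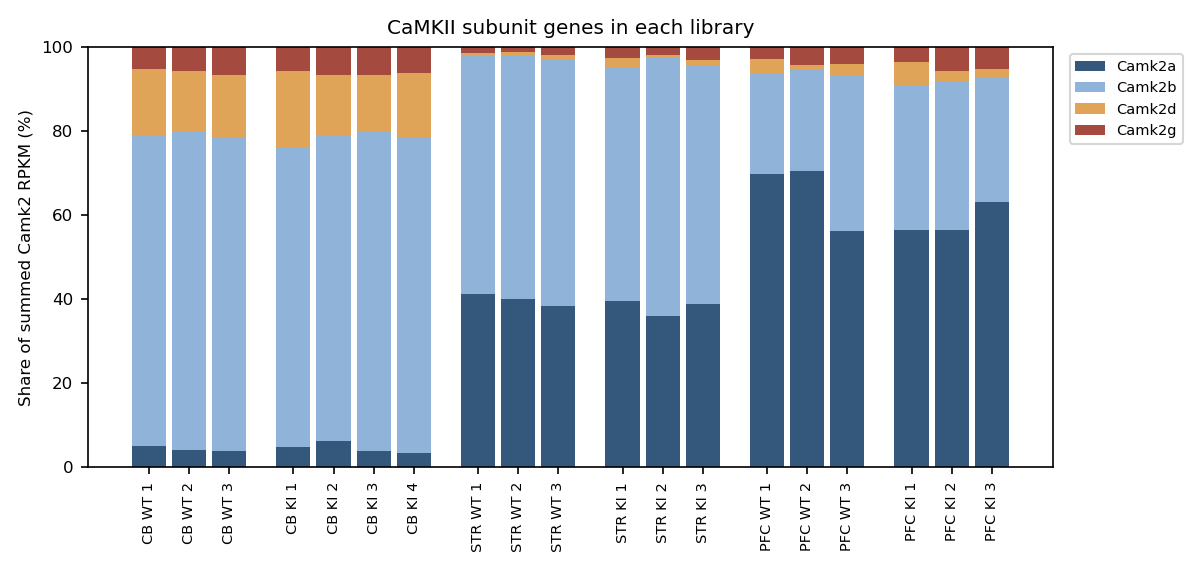
Share (%) of each CaMKII subunit gene in the summed RPKM of *Camk2a*, *Camk2b*, *Camk2d* and *Camk2g*, with a bar for each of the 19 libraries. *Camk2b* fills most of every cerebellar bar, *Camk2a* most of every prefrontal bar, and the *Camk2a* share of WT prefrontal replicates 1 and 2 (69.8% and 70.5%) lies above the 56.3% to 63.2% of WT replicate 3 and the 3 KI prefrontal libraries.

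The genes of the kinase cascade were less regional than *Camk2a*, with *Camk4* and *Camk1* at opposite ends. *Camk4* measured 467, 615 and 645 CPM in the WT cerebellum, 474, 400.2 and 332 CPM in the WT striatum and 217, 178 and 149 CPM in the WT prefrontal cortex. The prefrontal cortex lay below both other regions without overlap, and the cerebellum and striatum overlapped in WT cerebellum replicate 1. The cerebellum was 3.17-fold above the prefrontal cortex (adjusted p = 1.72e-06) and 1.43-fold above the striatum (adjusted p = 0.0274) by the quasi-likelihood test of edgeR, Benjamini-Hochberg adjusted, and the latter call was lost when any of 4 single libraries was left out (WT cerebellum replicate 2 or 3, adjusted p = 0.0803 and 0.103, or WT striatum replicate 2 or 3, adjusted p = 0.0723 and 0.116, same edgeR test). *Camk1*, a cytoplasmic kinase that acts in axon and dendrite growth, was highest in the prefrontal cortex at 213 ± 28.4 CPM (SD, n = 3), then in the cerebellum at 152 ± 9.44 CPM (SD, n = 3), and lowest in the striatum at 64.9 ± 13.0 CPM (SD, n = 3). It was 3.28-fold lower in the striatum than in the prefrontal cortex (adjusted p = 5.27e-07, the quasi-likelihood test of edgeR, Benjamini-Hochberg adjusted), and its 1.40-fold lower level in the cerebellum than in the prefrontal cortex (adjusted p = 0.0112) was lost without WT prefrontal cortex replicate 1 (adjusted p = 0.0586, same edgeR test).

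*Camk1d*, the delta form of CaMKI, was about as high in the WT striatum (96.8, 85.8 and 87.4 CPM) as in the WT prefrontal cortex (90.2, 80.2 and 72.6 CPM) and lower in the WT cerebellum (37.5, 43.9 and 41.1 CPM). Striatum and prefrontal cortex overlapped (log2 fold change 0.15, 95% interval -0.06 to 0.37). The cerebellum lay below both without overlap, by 2.21-fold from the striatum (adjusted p = 7.58e-08) and 1.98-fold from the prefrontal cortex (adjusted p = 5.30e-07) in the quasi-likelihood test of edgeR, Benjamini-Hochberg adjusted. Of the upstream kinases, *Camkk1* measured 102 ± 10.3 CPM (SD, n = 3) in the WT cerebellum, 132 ± 6.82 CPM (SD, n = 3) in the striatum and 190.1 ± 35.5 CPM (SD, n = 3) in the prefrontal cortex, and all 3 differences passed the test. With replicate numbers as a block over striatum and prefrontal cortex, whose same-numbered libraries deviated together, the *Camkk1* difference of -0.52 between these regions no longer passed (adjusted p = 0.0534 in edgeR's quasi-likelihood test). Without the block it was lost when WT prefrontal cortex replicate 2 or WT striatum replicate 2 was left out (adjusted p = 0.0772 and 0.0517, same edgeR test). The *Camkk1* difference between cerebellum and striatum was lost without any of 4 libraries, WT cerebellum replicate 2 or 3 and WT striatum replicate 1 or 3 (adjusted p from 0.0551 to 0.122, same edgeR test), and also with no filter on low counts (adjusted p = 0.0553) and with replicate numbers as a block across the regions (adjusted p = 0.0574), both in edgeR. *Camkk2*, which also phosphorylates AMP-activated kinase, had close means in the regions, 234.5 ± 47.3, 233 ± 22.9 and 232 ± 53.9 CPM (SD, n = 3 each), and its 95% intervals between regions lay within 0.40 of 0 on the log2 scale.

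*Camkv* had the widest regional range of the 10. Its CPM was 5.40, 5.83 and 5.10 in the WT cerebellum, 1108, 1225 and 1285 in the WT striatum and 669, 536 and 648 in the WT prefrontal cortex. The cerebellum was 221-fold below the striatum and 113-fold below the prefrontal cortex (adjusted p = 1.03e-09 and 4.52e-09, the quasi-likelihood test of edgeR, Benjamini-Hochberg adjusted). The striatum exceeded the prefrontal cortex in every library, with a log2 fold change of 0.96 (SE 0.362) and an adjusted p of 0.0529 by the same edgeR test, and with the block of the paired libraries the difference of 0.96 passed (adjusted p = 0.00276, edgeR's quasi-likelihood test).

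**Figure D3:**
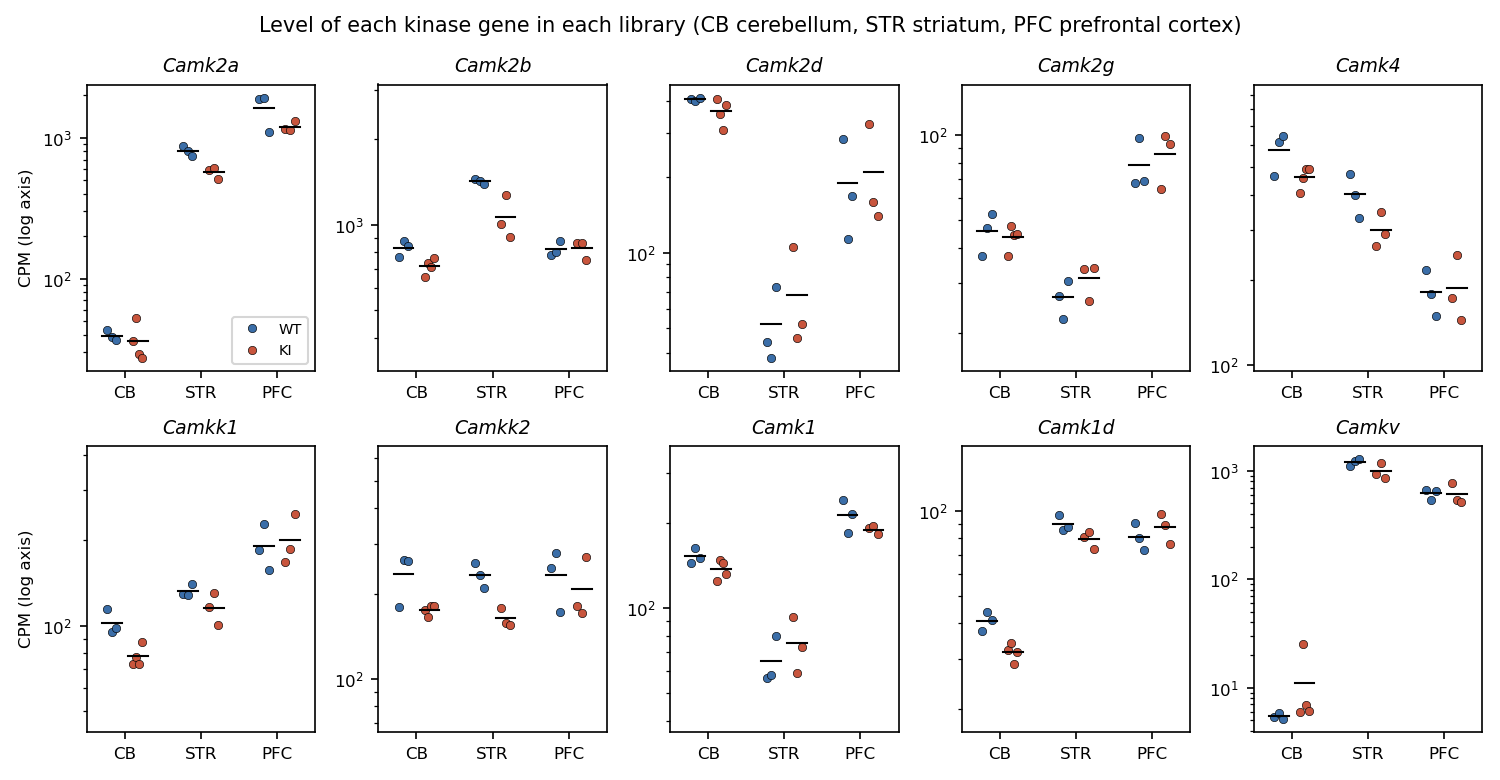
CPM (log axis, own scale in each panel) of each kinase gene in all 19 libraries, by region and genotype, with a line at each group's mean. KI points lie under the WT points for *Camk2b* and *Camk1d* in CB and STR, for *Camkk1* in CB and for *Camk2a* and *Camkk2* in STR. In *Camkv* a single KI cerebellar point lies at 25.2 CPM above the rest of that region.

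The comparison of knock-in with WT mice gave 0 of 10 members at an adjusted p under 0.05 in each of the 3 regions by the quasi-likelihood test of edgeR, Benjamini-Hochberg adjusted. Of all tested genes, 0.831% passed in cerebellum, 0.582% in striatum and 0.107% in prefrontal cortex. At an unadjusted p under 0.05 there were 4 members in the cerebellum, where 10.1% of all genes met it, 4 in the striatum, where 8.12% did, and 1 in the prefrontal cortex, where 5.93% did. DESeq2 on all groups called 1 member in the cerebellum (*Camk1d*) and 1 in the striatum (*Camk2b*), and DESeq2 on the compared groups alone called 3 in the cerebellum (*Camkk1*, *Camkk2*, *Camk1d*) and 2 in the striatum (*Camk2a*, *Camkk2*), with 0 in the prefrontal cortex by either. The fold change was below 0 for 9 of 10 members in the cerebellum, where 48.2% of all genes were below 0, for 7 of 10 in the striatum, where 51.5% were, and for 4 of 10 in the prefrontal cortex, where 49.5% were. The median log2 fold change of the members was -0.18, -0.24 and 0.03 in these regions, with medians of 0.01, -0.01 and 0.00 over all genes. KI and WT libraries did not overlap for 4 members in the cerebellum and 4 in the striatum, against 12.3% and 14.1% of all genes, and overlapped for all 10 in the prefrontal cortex, where 8.69% of all genes did not overlap.

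**Figure D4:**
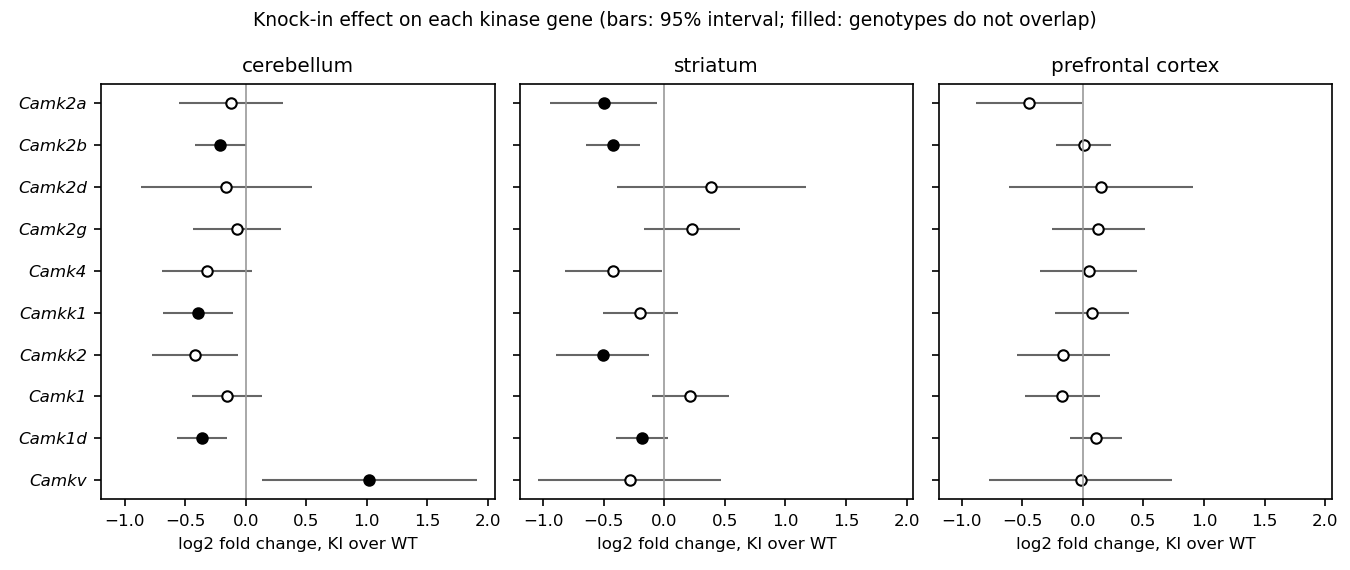
Log2 fold change of KI over WT for each kinase gene in the cerebellum, striatum and prefrontal cortex, with 95% intervals from the fit of all 19 libraries. Filled points, 4 in the cerebellum and 4 in the striatum, mark genes whose KI and WT libraries do not overlap, and no gene passed the adjusted threshold.

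In the striatum the subunits of neuronal CaMKII had the lower values in KI mice. *Camk2b* was at 1455, 1428 and 1398 CPM in WT and 1009, 1274 and 909 CPM in KI libraries. Every KI library was below every WT library, with KI replicate 2 nearest to WT. The log2 fold change was -0.42 (SE 0.107, 95% interval -0.65 to -0.20), a percent change of -25.4, with unadjusted p = 0.00101 and adjusted p = 0.105 from the quasi-likelihood test of edgeR, Benjamini-Hochberg adjusted. The paper names *Camk2b* among genes downregulated specifically in the KI striatum, where its methods give Cuffdiff and an adjusted p under 0.05. Leaving out KI striatum replicate 2 gave a log2 fold change of -0.57 and an adjusted p of 0.0106 in that edgeR test, and leaving out any other striatal library gave adjusted p between 0.174 and 0.509. DESeq2 gave an adjusted p of 0.0126 with all groups and 0.0973 with the striatum alone. Sex, read from *Xist* and Y-linked counts, was not balanced between genotypes in this region. A fit with a sex covariate did not call *Camk2b* there. High *Xist* marked 2 of 3 WT and 1 of 3 KI striatal libraries, and the same numbers held in the prefrontal cortex.

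*Camk2a* in the striatum was at 869.8, 805 and 746 CPM in WT and at 590.3, 612 and 509 CPM in KI libraries. The genotypes did not overlap. The log2 fold change was -0.50 (SE 0.208) with an adjusted p of 0.507 (the quasi-likelihood test of edgeR, Benjamini-Hochberg adjusted), 0.377 with DESeq2 on all groups and 0.00156 with DESeq2 on the striatum alone, against 0.162 with edgeR on the striatum alone. The summed RPKM of the 4 CaMKII subunit genes ran from 261 to 282 in WT and from 175 to 228 in KI striatum. *Camk2d* had a fold change of the other sign in the striatum, at 44.2, 38.2 and 73.3 CPM in WT and 106, 46.0 and 52.2 CPM in KI, and its log2 fold change of 0.39 (SE 0.37) became -0.08 without KI striatum replicate 1. *Camk2g* was at 26.7 ± 4.13 CPM (SD, n = 3) in WT and 31.3 ± 4.56 CPM (SD, n = 3) in KI striatum, with overlap.

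Among the cascade genes in the striatum, *Camkk2* was at 256, 232 and 210.1 CPM in WT and at 178, 158 and 155 CPM in KI libraries. The genotypes did not overlap. Its log2 fold change was -0.51 (SE 0.182, unadjusted p = 0.0125 and adjusted p = 0.381, the quasi-likelihood test of edgeR, Benjamini-Hochberg adjusted). DESeq2 gave an adjusted p of 0.226 on all groups and 0.0020 on the striatum alone, against 0.131 with edgeR on the striatum alone. *Camk4* had a fold change of similar size, -0.42 (SE 0.189), from 402 ± 71.0 CPM (SD, n = 3) in WT to 300.2 ± 43.2 CPM (SD, n = 3) in KI, with overlapping libraries and an adjusted p of 0.568 in the same edgeR test. *Camk1d* was lower in all KI libraries (80.5, 83.9 and 73.4 CPM) than in all WT libraries (96.8, 85.8 and 87.4 CPM), by a log2 fold change of -0.18 (SE 0.102). *Camkk1* at -0.20 (SE 0.146), *Camkv* at -0.29 (SE 0.359) and *Camk1* at 0.21 (SE 0.150) had overlapping genotypes.

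Fold changes in the striatum were above 0 for *Camk2d*, *Camk2g* and *Camk1*, with overlapping genotypes. Markers of medium spiny neurons, the principal cells of the striatum, were lower in KI libraries. Summed CPM of the 15 markers was 18102, 18876 and 15991 in WT and 9795, 13517 and 10352 in KI striatum, without overlap. In that comparison 14 of the 15 were below 0, with a median log2 fold change of -0.67, and 0 passed the adjusted threshold of edgeR's quasi-likelihood test, with 3 at an unadjusted p under 0.05. Their part in the kinase values was not tested. Cortical excitatory markers were above 0 for 11 of 12 in KI striatum, with sums from 238 to 487 CPM in WT and from 369 to 412 CPM in KI, oligodendrocyte markers summed to 18451, 16894 and 12828 CPM in WT and 21719, 9568 and 19503 CPM in KI, and choroid plexus markers summed to 1556 to 8980 CPM in WT and 4256 to 7214 CPM in KI.

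**Figure D5:**
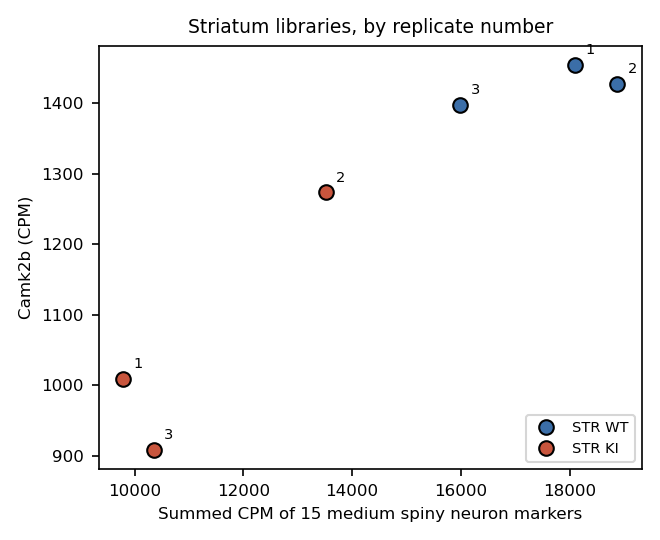
*Camk2b* CPM against the summed CPM of 15 medium spiny neuron markers in the 6 striatal libraries, numbered by replicate within genotype. The 3 KI libraries lie below the 3 WT libraries on both axes, and KI replicate 2, at 13517 and 1274 CPM, lies between the other KI libraries and WT.

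In the cerebellum the smallest adjusted p belonged to *Camk1d*. Its CPM was 37.5, 43.9 and 41.1 in WT and 32.4, 34.1, 28.7 and 31.7 in KI libraries. All 4 KI libraries were below all 3 WT libraries. The log2 fold change was -0.36 (SE 0.0972, 95% interval -0.57 to -0.16), a percent change of -22.2, with unadjusted p = 0.00171 and adjusted p = 0.112 from the quasi-likelihood test of edgeR, Benjamini-Hochberg adjusted. High *Xist* marked 2 of 3 WT and 2 of 4 KI cerebellar libraries, and a fit with a sex covariate taken from *Xist* and Y-linked counts gave adjusted p = 0.0230 for a log2 fold change of -0.39 by the same edgeR test, and DESeq2 gave 0.0444 with all groups and 0.0318 with the cerebellum alone. These 3 fits were the only ones of 8 alternative settings that called *Camk1d*. With single libraries left out, adjusted p from edgeR ran from 0.0991 to 0.429.

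Both upstream kinases were lower in value in KI cerebellum. *Camkk1* was at 114, 95.1 and 97.9 CPM in WT and at 73.2, 77.8, 73.4 and 87.8 CPM in KI libraries, with no overlap and a log2 fold change of -0.39 (SE 0.136, adjusted p = 0.273, the quasi-likelihood test of edgeR, Benjamini-Hochberg adjusted). *Camkk2* was at 179.9, 262 and 261 CPM in WT and at 175, 165, 181 and 181 CPM in KI libraries, and WT replicate 1 fell among the KI libraries. Its log2 fold change was -0.42 (SE 0.168, adjusted p = 0.385 in the same edgeR test). DESeq2 on the cerebellum alone gave adjusted p = 0.0129 for *Camkk1* and 0.0403 for *Camkk2*. It was the only 1 of 8 alternative settings that called either gene.

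The main cerebellar CaMKII subunit gene, *Camk2b*, was at 769, 878 and 840.2 CPM in WT and at 656, 736, 713 and 764 CPM in KI cerebellum. The genotypes did not overlap, but the highest KI and the lowest WT library were close. The log2 fold change was -0.21 (SE 0.0994, adjusted p = 0.493, the quasi-likelihood test of edgeR, Benjamini-Hochberg adjusted). *Camk4*, at 576 ± 95.2 CPM (SD, n = 3) in WT and 462 ± 42.1 CPM (SD, n = 4) in KI, had a log2 fold change of -0.32 (SE 0.175) with overlapping libraries. *Camk2a* at -0.12 (SE 0.203), *Camk2d* at -0.16 (SE 0.333), *Camk2g* at -0.07 (SE 0.172) and *Camk1* at -0.15 (SE 0.137) overlapped between genotypes as well.

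*Camkv* was the exception in sign in the cerebellum. It was at 5.40, 5.83 and 5.10 CPM in WT and at 5.97, 25.2, 6.89 and 6.05 CPM in KI libraries. All KI libraries were above all WT libraries, but KI replicate 2 alone was far above the rest. The log2 fold change of 1.02 (SE 0.421, unadjusted p = 0.0270 and adjusted p = 0.407, the quasi-likelihood test of edgeR, Benjamini-Hochberg adjusted) became 0.21 (SE 0.189) without that library. *Camk2a* was also highest in KI replicate 2, at 52.5 CPM against 27.4 to 36.0 CPM in the other KI libraries, and its log2 fold change of -0.12 became -0.35 without it. Medium spiny neuron markers in KI replicate 2 summed to 482 CPM and cortical excitatory markers to 718 CPM, inside the ranges of the other 3 KI libraries, 378 to 512 CPM and 618 to 743 CPM. The cortical excitatory list shares *Slc17a7* with the granule cell list, so its sum includes cerebellar expression. A part of tissue from another region in the *Camkv* and *Camk2a* values of this library was not tested.

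Purkinje cell and microglial markers also moved with genotype in the cerebellum. Summed CPM of the 14 Purkinje cell markers ran from 8515 to 8978 in WT and from 5255 to 7406 in KI cerebellum, all 14 were below 0 with a median log2 fold change of -0.48, and 3 fell by the quasi-likelihood test of edgeR, Benjamini-Hochberg adjusted, among them *Pcp2* with a log2 fold change of -1.16 and *Gng13* with -1.098. Summed CPM of the 8 microglial markers ran from 124 to 127 in WT and from 174 to 233 in KI libraries, and 5 of 8 rose, among them *C1qa*, *Aif1*, *Csf1r* and *Cx3cr1*. Summed CPM of 12 granule cell markers ran from 4698 to 5521 in WT and from 4248 to 4848 in KI, with 11 of 12 below 0, a median of -0.20 and 0 passing the test (0 at an unadjusted p under 0.05). The part of these cell types in the kinase values was not tested.

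In the prefrontal cortex no member's KI libraries stood apart from WT. *Camk2a* had the only unadjusted p under 0.05 (0.0459), at 1883, 1932 and 1104 CPM in WT and 1158, 1134 and 1314 CPM in KI libraries. WT replicates 1 and 2 were above all KI libraries and WT replicate 3 was below them. The log2 fold change was -0.45 (SE 0.208, adjusted p = 0.838, the quasi-likelihood test of edgeR, Benjamini-Hochberg adjusted), and without WT replicate 3 it was -0.67 (adjusted p = 0.505 in the same edgeR test). That library had the lowest sum of cortical excitatory markers, 1801 CPM against 2464 to 2945 in the other 5 prefrontal libraries. Summed CPM of medium spiny neuron markers was 1077, 957 and 1718 in WT and 1728, 2269 and 812 in KI prefrontal cortex, with overlap, and 15 of these 15 markers were above 0 in KI against WT, with a median log2 fold change of 0.50, 1 at an unadjusted p under 0.05 and 0 passing the adjusted test. Their part in the prefrontal values was not tested. *Camk2b* in the prefrontal cortex was at 783, 803 and 879.9 CPM in WT and 863, 865 and 749 CPM in KI, with a log2 fold change of 0.01 (SE 0.107, 95% interval -0.22 to 0.23). The remaining 8 members had log2 fold changes between -0.17 and 0.15, and *Camk2d* was high in replicate 1 of both genotypes, at 284 and 326 CPM against 114 to 168 CPM in the other 4.

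Differences of the knock-in effect between regions were tested as interactions, and 0 of 10 members passed in any of the 3 pairs of regions by the quasi-likelihood test of edgeR, Benjamini-Hochberg adjusted, where 0.0119%, 0.0178% and 0.00% of all genes did (cerebellum against striatum, cerebellum against prefrontal cortex and striatum against prefrontal cortex). At an unadjusted p under 0.05 there were 1, 2 and 1 members, against 6.69%, 6.12% and 4.41% of all genes, and DESeq2 with all groups also called 0 in each pair. *Camk2b* differed by -0.43 (log2, SE 0.151) between the knock-in effects of striatum and prefrontal cortex (unadjusted p = 0.0112, adjusted p = 1.00 in the edgeR test). *Camk1d* differed by -0.47 (SE 0.141, unadjusted p = 0.00384, adjusted p = 0.493, edgeR) and *Camkk1* by -0.46 (SE 0.199, unadjusted p = 0.0327, adjusted p = 0.758, edgeR) between cerebellum and prefrontal cortex. The *Camkv* difference of 1.31 between cerebellum and striatum was 0.49 without KI cerebellum replicate 2.

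The other genes of the pathway gave no calls between genotypes. Further lists held 12 genes related to the CaM kinase group, 13 calmodulin genes and calmodulin-binding regulators, and 12 genes of opposing phosphatases and their regulators. Others held 28 genes for kinase targets and 18 genes for calcium entry, stores, pumps and buffers. Of all these genes, 0 passed in either direction in any region by the quasi-likelihood test of edgeR, Benjamini-Hochberg adjusted. At an unadjusted p under 0.05 the counts were 0, 2, 0, 6 and 6 in the cerebellum, 1, 1, 4, 5 and 5 in the striatum and 1, 1, 0, 1 and 1 in the prefrontal cortex, in the order of the lists above, against 10.1%, 8.12% and 5.93% of all genes. Medians of log2 fold change for these lists lay from -0.19 to 0.07 in the cerebellum, from -0.18 to -0.07 in the striatum and from -0.06 to 0.01 in the prefrontal cortex. Of the 12 relatives 2 were higher and 8 lower in cerebellum than in striatum, and 1 was higher and 8 were lower in cerebellum than in prefrontal cortex. The genes of phosphatases and their regulators, which include calcineurin, had 2 higher and 9 lower of 12 in cerebellum against striatum. The genes for calcium entry, stores, pumps and buffers had 10 higher and 4 lower of 18 in the same comparison. Of these, *Calb1*, *Itpr1* and *Cacna1g* are also in the list of Purkinje cell markers. Of all genes, 27.8% were higher and 28.7% lower in cerebellum than in striatum, and 25.1% higher and 26.9% lower in cerebellum than in prefrontal cortex.

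The genes whose log2 CPM, centred on its own mean, followed a member most closely over the 19 libraries were found by the root mean square difference. For *Camk2a* these were *Syt16* (0.29) and *Nxph2* (0.35), over a range of WT group means of 5.33 on the log2 scale. For *Camkv* they were *Kcnj4* and *Ctxn1* (0.47 each), over a range of 7.76. For *Camk2b*, with a range of 0.80, they were *Scmh1* and *Shank3* (0.13 each), and *Shank3* encodes a postsynaptic scaffold. For *Camk1d*, with a range of 1.139, they were *Dclk1*, a kinase related to the CaM kinases, and *Tacc1* (0.15 each). These are descriptions over libraries that share regions and depth.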

How the data were processed

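The count table holds raw read counts per Ensembl gene, which the authors deposited without normalization. The submitters' processing notes name bcl2fastq 2.17.1.14, STAR 2.5.2b, HTSeq, DESeq2 1.10.1 and GRCm38.p3, while the paper's methods name Cufflinks and Cuffdiff. Libraries were made with SMART-Seq v4 and Nextera XT kits, which give no molecular identifiers, and the use of strand in counting is not given in the sources used here. A deposited signal table, the counts divided by a size factor for each library, served as an alternative for WT levels. Gene names, positions and exon lengths came from GENCODE M21, and promoter windows from RefSeq.

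Analysis of the counts used edgeR 4.0.16 in R 4.3.3. Genes were filtered with filterByExpr on the 6 groups, libraries were scaled by TMM, and a single quasi-likelihood fit of all 19 libraries (13 residual degrees of freedom) gave the comparisons between genotypes, between WT regions and the interactions. Benjamini-Hochberg adjustment ran over 16841 genes, and the threshold was 0.05. Log2 CPM used a prior count of 2. Steps were tested on simulated data. Libraries of a group differed by more than sampling noise (chi-square per gene at least 5.14 over 21 pairs).

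The members and lists were chosen with earlier results of these data known. All members are named. Genes of the lists are named where they passed in a genotype comparison, at most 4 per list and comparison with the smallest adjusted p, and 2 like-pattern genes are named for each of 4 members, those with the smallest genotype p or the widest WT range. *Cx3cr1* and the libraries discussed singly were named after their values were seen. Nothing says whether the libraries of a group are separate animals beyond the statement of 3 to 4 mice per genotype, so p values measure the spread between these libraries.

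Same-numbered striatal and prefrontal libraries of a genotype deviated together (correlations from 0.317 to 0.368 in KI and from 0.233 to 0.327 in WT), so a fit with these numbers as a block was run beside the fit above, which has no block and gave the printed values unless stated. Cerebellar numbers did not pair with them. Alternatives were DESeq2 1.42.0 size factors and test, fits of the compared groups alone, no filter, at least 10 counts in every library, replicate blocks, a covariate for sex and each library left out. The block over striatum and prefrontal cortex alone was added after seeing the data. Values of some single marker genes are not reported here.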

Additional observations from a re-analysis of the deposited data

Results flagged for a closer look

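*Camkv* was at 25.2 CPM in KI cerebellum replicate 2, far from the 5.97 to 6.89 CPM of the other 3 KI cerebellar libraries. The gap to the nearest library was 0.952 of the group's range, above Dixon's 95% critical value for 4 samples. It was the only flag among the 10 members in that group. Chance flags about 1 in 20 single tests, and 10 were run. The other groups, with 3 libraries each, were not tested in this way. No member passed the interaction test of the knock-in effect between regions.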

How the results depend on the processing

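The lowest counts of any member were those of *Camkv* in WT cerebellum, 63 to 89 per library. The number of libraries sets the precision, and 95% intervals of the knock-in effect reached from -1.04 to 1.91 on the log2 scale. Members called between genotypes numbered 1 in the cerebellum and 1 in the striatum with the DESeq2 test on all groups, 3 and 2 with DESeq2 on the groups compared only, and 1 in the cerebellum with the sex covariate, against 0 in the edgeR fit. With single libraries left out the count was 0 in the cerebellum and prefrontal cortex and 0 to 1 in the striatum. Members called between WT regions ranged over left-out libraries from 7 to 9 (cerebellum against striatum), 7 to 8 (cerebellum against prefrontal cortex) and 6 to 7 (striatum against prefrontal cortex), and were 8 to 9, 8 and 7 to 8 under the other settings. The replicate block within regions left 0 members called in each genotype comparison, that across regions called 8 in each WT comparison, and the block over striatum and prefrontal cortex, added after seeing the data, called 7, gaining *Camkv* and losing *Camkk1*, and 0 for the interaction. It changed no other call among the members.

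Signs turned for differences that no setting called. *Camk2b* between genotypes in the prefrontal cortex was -0.00053 with DESeq2 size factors, -0.0049 with at least 10 counts, -0.00044 with the DESeq2 test and -0.035 with the sex covariate, which also gave *Camk4* -0.054 there. Between WT cerebellum and striatum, *Camkk2* was -0.0070, -0.023, -0.0068 and, with DESeq2 on the groups compared only, -0.0054. Between WT cerebellum and prefrontal cortex, *Camk2b* was -0.00098, -0.0078, -0.00099 and -0.0089 and *Camkk2* -0.00027, -0.0051, -0.00017 and -0.0076 in the same order. Between WT striatum and prefrontal cortex, *Camkk2* was -0.00026 with edgeR on the groups compared only. With single libraries left out, log2 fold changes between genotypes in the prefrontal cortex ran from -0.038 to 0.072 (*Camk2b*), -0.33 to 0.57 (*Camk2d*), -0.0012 to 0.32 (*Camk2g*), -0.20 to 0.20 (*Camk4*), -0.11 to 0.22 (*Camkk1*) and -0.23 to 0.087 (*Camkv*), in the striatum from -0.079 to 0.72 (*Camk2d*) and in the cerebellum from -0.20 to 0.043 (*Camk2g*). Between WT regions *Camk2b* ran from -0.031 to 0.065 (cerebellum against prefrontal cortex), and *Camkk2* from -0.077 to 0.17 (cerebellum against striatum), -0.16 to 0.17 (cerebellum against prefrontal cortex) and -0.17 to 0.15 (striatum against prefrontal cortex). The cause of these changes was not tested. The authors' normalized table moved no ratio of WT levels by more than 1 SD.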
